A study of Homo sapiens with 12 samples.

Results

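The genes described here encode the NF-κB subunits (NFKB1, NFKB2, RELA, RELB and REL), feedback inhibitors of the pathway (NFKBIA, NFKBIE, TNFAIP3 and BIRC3) and the interferon response factor IRF1. They were found by their gene symbols in the annotated table of log2 signals, where 9 of the 10 had a probe set with that symbol alone, among 18404 genes in all. BIRC3 was not analysed here. The arrays (Affymetrix Gene 1.0 ST) were of A673, an Ewing sarcoma cell line in which a translocation joins EWSR1 to the ETS factor gene FLI1, so that every group carried the fusion. No other line was measured. There were 6 groups of 2 arrays. Cells were left untreated (0 h), or were given DMSO, 5 nM or 50 nM actinomycin D for 24 h. The other cells were infected in the presence of Polybrene with a virus for FLI1 shRNA or for lacZ shRNA, which targets a bacterial gene, and were selected with puromycin. The labels put these arrays at 48 h, whereas the protocol describes 24 h with virus and then 48 h of selection. The series description calls the control shRNA scrambled and the labels call it lacZ. The study used the knock-down to define genes that depend on the fusion and asked whether actinomycin D, a compound that binds DNA and blocks transcription, lowers them. The 2 arrays of a group came from duplicate experiments, of which no source says how separate the cultures were, so p-values measure only the spread between these arrays, and the number of arrays limits the precision.

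NF-κB factors are dimers of proteins that share the Rel homology domain. NFKB1 and NFKB2 encode the precursors p105 and p100, which are processed to the DNA-binding subunits p50 and p52, and RELA, RELB and REL encode the subunits with a transactivation domain. In resting cells inhibitors such as IκBα (NFKBIA) and IκBε (NFKBIE) hold the dimers in the cytoplasm, until the IKK kinases mark the inhibitors for degradation. The freed dimers then switch on the genes of several of their own subunits and inhibitors, among them NFKBIA and TNFAIP3, which encodes the ubiquitin-editing enzyme A20. IRF1 is a transcription factor induced by interferon γ and by NF-κB.

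Sequences that NF-κB dimers can bind lie just before the start sites of most of these genes. Promoters of 300 bases, from 250 before to 50 after a RefSeq start on GRCh38.p14, were given for 7 of the 9 measured genes, with 11 starts in all, and not for RELB and NFKBIE. The kappa-B decamer consensus, searched on both strands, was present in 6 of the 7 genes and at 7 of the 11 starts. It was present in 11.3% of all 35116 promoters of the table. RELA was the gene without a match. The windows that follow carry these matches in capitals on the strand of the gene and are shown because they are the sequence features these genes share. Overlapping kappa-B matches are printed as a single run.

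NFKB1, chr4:102501290-102501339, plus strand: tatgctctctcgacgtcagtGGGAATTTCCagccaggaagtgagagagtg
NFKB2, start 2, chr10:102394451-102394529, plus strand: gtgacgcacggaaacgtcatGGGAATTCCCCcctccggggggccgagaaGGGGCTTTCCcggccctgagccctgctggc
NFKB2, start 3, chr10:102395509-102395558, plus strand: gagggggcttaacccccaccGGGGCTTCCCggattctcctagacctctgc
NFKB2, start 3, chr10:102395664-102395704, plus strand: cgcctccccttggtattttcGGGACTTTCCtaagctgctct
REL, chr2:60881507-60881557, plus strand: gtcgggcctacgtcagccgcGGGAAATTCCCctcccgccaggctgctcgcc
NFKBIA, chr14:35404801-35404850, minus strand: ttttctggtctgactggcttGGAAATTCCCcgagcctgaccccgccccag
TNFAIP3, chr6:137867172-137867233, plus strand: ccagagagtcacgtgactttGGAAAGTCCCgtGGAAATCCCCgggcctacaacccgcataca
IRF1, chr5:132490794-132490843, minus strand: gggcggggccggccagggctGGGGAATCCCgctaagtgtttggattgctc

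**Figure D1:**
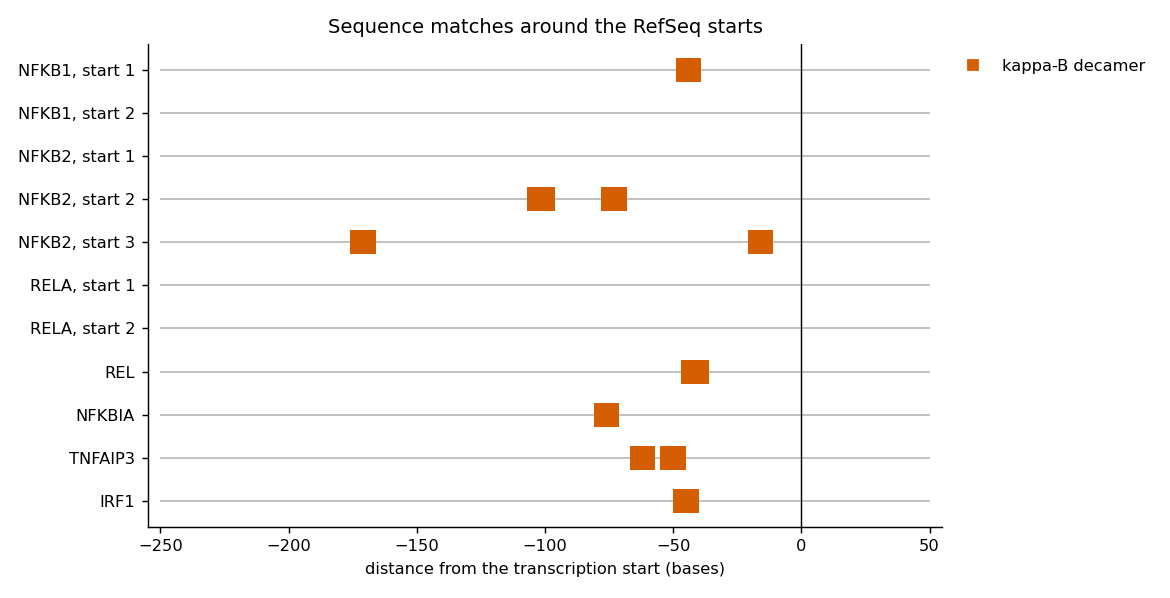
Each line is a RefSeq promoter of a measured gene, with the distance from the transcription start in bases on the horizontal axis and the kappa-B matches as boxes drawn to length. The kappa-B match of NFKB1 covers positions -49 to -40, TNFAIP3 has 2 matches (-67 to -58 and -55 to -46), and that of IRF1 covers -50 to -41.

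The kappa-B match of NFKB1 lay at positions -49 to -40, counted back from the start, and that of NFKBIA at -81 to -72. TNFAIP3 had 2 matches, at -67 to -58 and -55 to -46, both read on the opposite strand. The match of IRF1 covered -50 to -41. These matches describe the sequence only, since binding was not measured on these arrays.

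Arrays of a group correlated at 0.995 to 0.998 over all genes. FLI1, whose coding end is part of the fusion, fell by 1.35 ± 0.09 (SE) on the log2 scale after FLI1 shRNA (39.2% of the lacZ level, adjusted p = 5.39e-06). Of the markers of the line, CD99 lay between log2 11.9 and 12.4 and NKX2-2 between 7.52 and 10.0. The blood markers PTPRC (3.49 to 3.82) and LYZ (3.82 to 4.39) were among the dimmest genes of the array (mean at percentiles 2.47 and 5.04). Other markers were not dim: CD68 and CD79A, on the blood list, had means at percentiles 81.6 and 78.9, and the epithelial keratins KRT8 and KRT18 at 84.8 and 95.7, while EPCAM and CDH1 were at 13.6 and 12.6. The summed linear signal of 7 blood markers was 2040 to 2100 on the actinomycin D arrays and 1230 to 1490 on all others. That of 6 epithelial markers was 3430 to 4070 on the actinomycin D arrays and 2970 to 3430 on the others. That of 6 endothelial markers was 460 to 509 on the actinomycin D and FLI1 shRNA arrays and 377 to 464 on the others, and KDR among them rose by 1.85 after FLI1 shRNA. The part of these markers in the results was not tested. In such bulk RNA a change in the share of cells that transcribe a gene and a change in RNA per cell cannot be told apart.

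The RNA levels of the precursor genes NFKB1 and NFKB2 moved apart across the groups. For NFKB1 the 2 arrays read 8.87 and 8.90 in untreated cells, 9.01 and 8.77 with DMSO, 7.69 and 7.62 at 5 nM actinomycin D, 7.51 and 7.79 at 50 nM, 9.42 and 9.36 with lacZ shRNA and 9.80 and 9.74 with FLI1 shRNA. The knock-down arrays were thus the highest, the lacZ arrays followed, and every actinomycin D array lay below every other array. The group means of NFKB1 spanned 2.12 log2 units, more than for 97.5% of all genes. For NFKB2 the arrays read 7.66 and 7.81 untreated, 7.65 and 7.73 with DMSO, 8.04 and 7.79 at 5 nM, 7.70 and 7.86 at 50 nM, 8.29 and 8.39 with lacZ shRNA and 8.67 and 8.71 with FLI1 shRNA. FLI1 shRNA was again above lacZ shRNA, and lacZ shRNA above the remaining groups, among which neighbours in the order of means overlapped while the 5 nM arrays lay above those with DMSO.

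Among the transactivating subunits, REL (c-Rel) and RELA (p65) had their lowest level at 50 nM. REL read 8.77 and 8.81 untreated, 8.90 and 8.86 with DMSO, 9.19 and 9.17 at 5 nM, 7.31 and 7.28 at 50 nM, 9.04 and 8.94 with lacZ shRNA and 8.92 and 8.95 with FLI1 shRNA. RELA read 10.29 and 10.35 untreated, 10.26 and 10.28 with DMSO, 10.61 and 10.68 at 5 nM, 9.38 and 9.47 at 50 nM, 10.27 and 10.22 with lacZ shRNA and 10.40 and 10.42 with FLI1 shRNA. For both genes the 5 nM arrays were the highest and the 50 nM arrays stood clear below all others. RELB, the partner of p52 in the alternative pathway, moved less: its group means spanned 0.60 log2 units, from 7.51 with DMSO to 8.11 with FLI1 shRNA, and the FLI1 shRNA, 5 nM and lacZ arrays were neighbours that overlapped.

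The inhibitors had other orders. NFKBIA read 10.21 and 10.39 untreated, 10.30 and 10.02 with DMSO, 10.93 and 10.82 at 5 nM, 8.89 and 8.87 at 50 nM, 10.94 and 10.97 with lacZ shRNA and 10.80 and 10.82 with FLI1 shRNA. TNFAIP3 read 7.28 and 7.56 untreated, 7.24 and 7.13 with DMSO, 8.72 on both arrays at 5 nM, 6.97 and 7.03 at 50 nM, 8.03 and 7.95 with lacZ shRNA and 8.18 and 8.34 with FLI1 shRNA. NFKBIA thus stood at like levels at 5 nM and in both shRNA groups, where the 5 nM and FLI1 shRNA arrays overlapped, whereas TNFAIP3 was highest at 5 nM. NFKBIE had its highest arrays at 5 nM (8.23 and 8.15), and its other groups lay between 7.46 and 7.92 with those of DMSO, lacZ shRNA, untreated and 50 nM overlapping in that order.

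IRF1 read 6.94 and 6.97 untreated, 6.95 and 6.86 with DMSO, 8.89 and 8.16 at 5 nM, 7.38 and 7.22 at 50 nM, 7.04 and 7.16 with lacZ shRNA and 7.49 on both arrays with FLI1 shRNA. Its 5 nM arrays were the highest and also the farthest apart of any pair for these genes. The order below them was FLI1 shRNA, 50 nM and lacZ shRNA, with no overlap between neighbours, and then untreated and DMSO, which overlapped.

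Infection with the control virus went with higher levels of several of these genes. Between lacZ shRNA and untreated cells, 4 of the 9 rose and 0 fell, where rose and fell mean an adjusted p under 0.05 in limma over all 18404 genes. Of all genes, 0.815% rose and 2.26% fell in this comparison. At an unadjusted p under 0.05 there were 6 higher and 0 lower, but the share of all genes at that threshold was not computed. NFKBIA rose by 0.65 ± 0.10 log2 units (1.57-fold, adjusted p = 0.00832), NFKB2 by 0.60 ± 0.10 (1.52-fold, adjusted p = 0.0138), TNFAIP3 by 0.57 ± 0.10 (1.49-fold, adjusted p = 0.0154) and NFKB1 by 0.50 ± 0.10 (1.42-fold, adjusted p = 0.0328). RELB was 0.34 higher (adjusted p = 0.0653) and REL 0.20 higher (adjusted p = 0.151), and neither passed, although RELB did with dim genes left out (adjusted p = 0.0233) and with trended and robust variances (adjusted p = 0.0414), which made the count 5. RELA, NFKBIE and IRF1 differed by -0.07, 0.06 and 0.14 and did not pass (95% intervals -0.22 to 0.08, -0.15 to 0.26 and -0.25 to 0.54). The median of the 9 was 0.34, beside 0.00 for all genes. The groups differed in time (0 h and 48 h), virus, Polybrene and puromycin, which cannot be told apart. The count fell to 0 when untreated replicate 1, lacZ replicate 1 or lacZ replicate 2 was left out, to 2 without untreated replicate 2, and to 1 in a fit of the 4 arrays alone, although the direction of these 4 genes held in each.

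DMSO for 24 h moved none of the 9 past the threshold. In limma, 0 rose and 0 fell, and of all genes 0.00543% rose and 0% fell. At an unadjusted p under 0.05 there were 0 higher and 2 lower, TNFAIP3 (-0.23) and RELB (-0.20). No share of all genes was computed at that threshold. With trended and robust variances limma also called 0.

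After FLI1 shRNA both precursor genes rose further above the lacZ control. NFKB1 rose by 0.38 ± 0.10 log2 units (1.30-fold, adjusted p = 0.0226) and NFKB2 by 0.35 ± 0.10 (1.28-fold, adjusted p = 0.0267). In limma 2 of the 9 rose and 0 fell. Of all genes 14.6% rose and 9.28% fell, so the share of these genes that passed was not far from that of the array. At an unadjusted p under 0.05, 4 were higher and 0 lower, and no share of all genes was computed there. IRF1 was 0.39 ± 0.18 higher (adjusted p = 0.147) and TNFAIP3 0.27 ± 0.10 higher (adjusted p = 0.0768), and neither passed; IRF1 passed in the fit of the 4 arrays alone (adjusted p = 0.0183) and TNFAIP3 with dim genes left out (adjusted p = 0.0412). RELA was 0.17 higher (adjusted p = 0.113, and 0.0443 with trended and robust variances). RELB and REL were at 0.06 and -0.05, with 95% intervals of -0.14 to 0.25 and -0.20 to 0.09. NFKBIA, on the other hand, was 0.14 lower (95% interval -0.36 to 0.07, adjusted p = 0.334), and NFKBIE 0.13 higher (adjusted p = 0.375). The median of the 9 was 0.17, beside -0.01 for all genes. Leaving out any of the 4 arrays took both calls away (0 of 9, adjusted p 0.0611 to 0.125 for NFKB1 and 0.0605 to 0.127 for NFKB2), as did testing all rows of the table (adjusted p = 0.0533 and 0.0603).

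At 5 nM actinomycin D most of these genes rose on the deposited scale, and NFKB1 fell. Against DMSO, 7 of the 9 rose and 1 fell, where 30.3% of all genes rose and 23% fell. IRF1 rose by 1.62 ± 0.18 log2 units (3.07-fold, adjusted p = 1.84e-05) and TNFAIP3 by 1.53 ± 0.10 (2.90-fold, adjusted p = 3.25e-07). NFKBIA rose by 0.72 ± 0.10 (1.64-fold, adjusted p = 9.97e-05). NFKB1 fell by 1.23 ± 0.10, to 42.6% of the DMSO level (adjusted p = 2.61e-06). These 4 calls held when each array was centred on the mean of its 57 ribosomal protein genes, a scale on which the median of all genes moved from 0.12 to -0.23 (IRF1 1.26, TNFAIP3 1.18, NFKBIA 0.36 and NFKB1 -1.58).

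The smaller rises at 5 nM depended on that scale. RELB was 0.58 higher (adjusted p = 2.21e-04), NFKBIE 0.46 (adjusted p = 0.00178) and RELA 0.38 (adjusted p = 8.46e-04) on the deposited scale, and after ribosomal centring they were at 0.22, 0.11 and 0.02 and did not pass. REL rose by 0.30 (adjusted p = 0.00308) on the deposited scale and was at -0.05 after centring, and NFKB2, at 0.22 (adjusted p = 0.0829), turned to -0.13. NFKB2 was at 0.10 without 5 nM replicate 1 and at 0.35 without 5 nM replicate 2, where it passed (adjusted p = 0.0199). Thus 3 of the 9 rose after centring, against 7 before it. The share of all genes that rose on the centred scale is not given, so the count of 3 is not compared with the array. Of all genes called at 5 nM, 56.9% were higher on the deposited scale and 17.2% after centring. The median of the 9 was 0.46 on the deposited scale, beside 0.12 for all genes.

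At 50 nM the pattern was another. Against DMSO 1 of the 9 rose and 4 fell, where 25.8% of all genes rose and 23.3% fell. REL fell by 1.58 ± 0.07 log2 units, to 33.4% of the DMSO level (adjusted p = 6.23e-08). NFKBIA fell by 1.28 ± 0.10 (41.1%, adjusted p = 2.28e-06). NFKB1 fell by 1.24 ± 0.10 (42.4%, adjusted p = 4.6e-06) and RELA fell by 0.84 ± 0.07 (55.7%, adjusted p = 3.56e-06). TNFAIP3 and NFKBIE were at -0.19 and -0.15 and did not pass (adjusted p = 0.135 and 0.2), but passed as lower after ribosomal centring, at -0.44 and -0.41, and TNFAIP3 also with repeated quantile normalization (-0.26). IRF1 was 0.39 ± 0.18 higher (adjusted p = 0.0878) and passed in the fit of the 4 arrays alone (adjusted p = 0.0143). RELB rose by 0.27 ± 0.09 (adjusted p = 0.0249), a call that was lost without DMSO replicate 1 (0.19), without 50 nM replicate 2 (0.18), after centring (0.02) and in the fit of the 4 arrays alone (adjusted p = 0.0668). NFKB2 was at 0.09 (95% interval -0.13 to 0.31) and at -0.17 after centring. Of all genes called at 50 nM, 52.5% were higher on the deposited scale and 12.2% after centring.

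Between the doses, 0 of the 9 rose from 5 nM to 50 nM and 7 fell in limma, where 21.6% of all genes rose and 23.1% fell. The counts of the 9 were the same at an unadjusted p under 0.05, for which no share of all genes was computed. The difference was 2.00 ± 0.10 log2 units for NFKBIA, whose level at 50 nM was 25% of that at 5 nM (adjusted p = 4.92e-08). REL fell by 1.88 (27.1%), TNFAIP3 by 1.72 (30.3%), IRF1 and RELA each by 1.22 (42.8% and 43%), NFKBIE by 0.61 and RELB by 0.30, with adjusted p between 1.04e-08 and 0.015. For RELB the call was lost without 5 nM replicate 1 (-0.28), without 50 nM replicate 1 (-0.21), after centring (-0.21) and in the fit of the 4 arrays alone (adjusted p = 0.0664). NFKB1 did not pass: its difference was -0.01 with a 95% interval of -0.24 to 0.22, and NFKB2 was at -0.13 (-0.36 to 0.09). Centring moved the share of higher calls among all genes from 48.3% to 59.5% here. The median of the 9 was -1.22, beside 0.02 for all genes. Both doses were set against the same DMSO arrays, whereas this comparison did not use them.

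**Figure D2:**
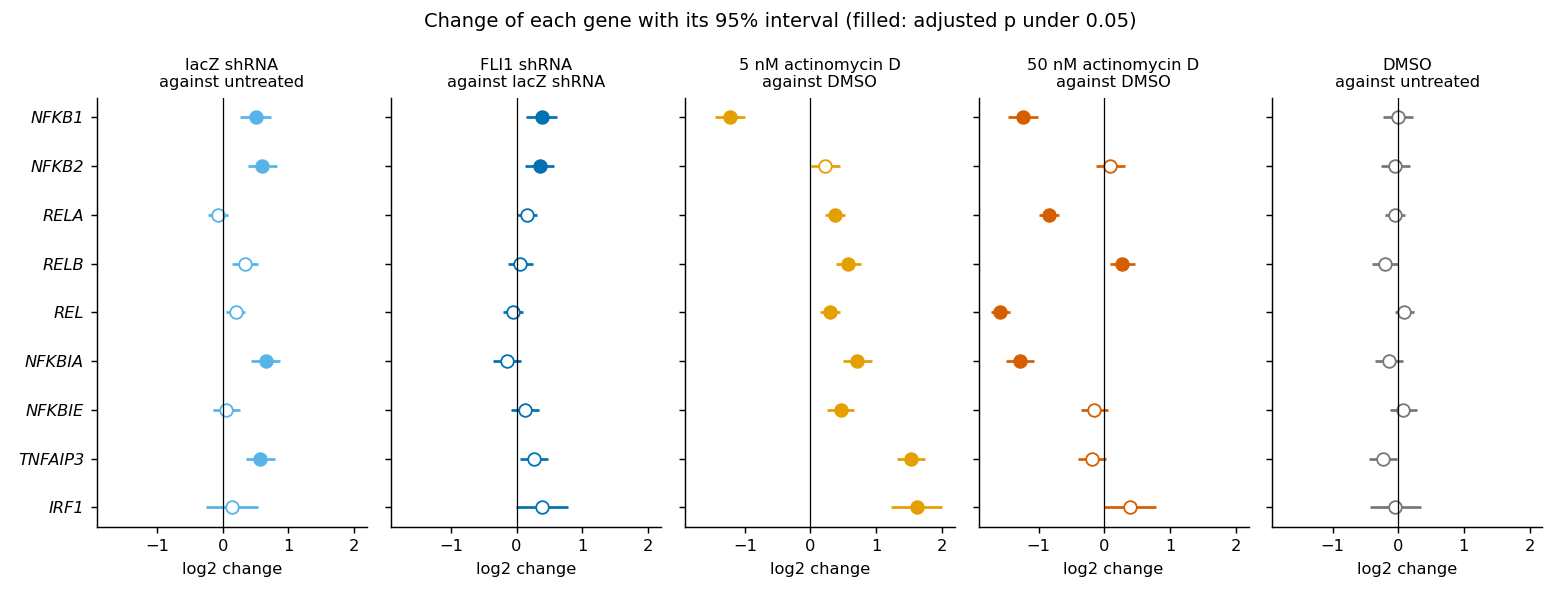
Log2 change (horizontal axis) of each of the 9 genes with its 95% interval, by comparison, filled where the adjusted p lies under 0.05. On the deposited scale 7 genes rose and NFKB1 fell at 5 nM, 4 fell at 50 nM, 4 rose with lacZ shRNA against untreated cells, 2 rose after FLI1 shRNA, and none passed with DMSO; after ribosomal centring 3 rose at 5 nM, where REL and NFKB2 turned negative, and RELB did not rise at 50 nM.

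The knock-down and 5 nM responses were compared directly, as the change after FLI1 shRNA minus the change at 5 nM, which share no array. Of the 9 genes 6 differed, where 46.6% of all genes did. NFKB1 moved in opposite directions in both responses, by a difference of 1.61 ± 0.15 log2 units (adjusted p = 7.95e-06). TNFAIP3 (-1.27 ± 0.14, adjusted p = 2.99e-05), IRF1 (-1.23 ± 0.25, adjusted p = 0.00219) and NFKBIA (-0.86 ± 0.14, adjusted p = 4.52e-04) had a higher change at 5 nM than after the knock-down. RELB (-0.52, adjusted p = 0.00574) and REL (-0.35, adjusted p = 0.0108) did the same on the deposited scale, but after centring RELB was at -0.15 and did not pass and REL was at 0.01. Each response was set against its own control, lacZ shRNA at 48 h or DMSO at 24 h. NFKBIA was at 10.96 with lacZ shRNA and 10.16 with DMSO, while its levels at 5 nM (10.88) and with FLI1 shRNA (10.81) were alike. The part of the controls and times in these differences was not tested. NFKB2 (0.13, 95% interval -0.19 to 0.44), RELA (-0.21, -0.42 to 0.01) and NFKBIE (-0.33, -0.62 to -0.04, adjusted p = 0.0629) did not pass; after centring they were at 0.50, which passed, and at 0.16 and 0.03.

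The genes differ in length, a property that went with the change at 5 nM across the array. The annotated spans were 116 kb for NFKB1, 50 kb for REL, 36.7 kb for RELB, 17 kb for TNFAIP3, 10.3 kb for RELA, 9.16 kb for IRF1, 8.42 kb for NFKB2, 7.39 kb for NFKBIE and 3.24 kb for NFKBIA. Over protein-coding genes the median change at 5 nM was 0.26 for 4234 genes under 10 kb, 0.16 for 7009 of 10 to 50 kb, -0.15 for 2580 of 50 to 100 kb and -0.49 for 3075 over 100 kb. NFKB1, the longest of the 9, was the one that fell at 5 nM, with a change below the median of its class. REL, the next in length, lay at the lower edge of its class. It rose by 0.30 on the deposited scale, against a median of -0.15 in its class and 0.16 in the class below. After centring REL was at -0.05, a scale on which the class medians were not computed. IRF1 and TNFAIP3 lay above the medians of theirs. At 50 nM the class medians ran from 0.21 to -0.03. The 4 genes that fell were spread over the range of spans. NFKBIA, the shortest, was at -1.28, and RELA, of 10.3 kb, was at -0.84. REL and NFKB1, the longest, were at -1.58 and -1.24. The part of span in these changes was not tested.

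**Figure D3:**
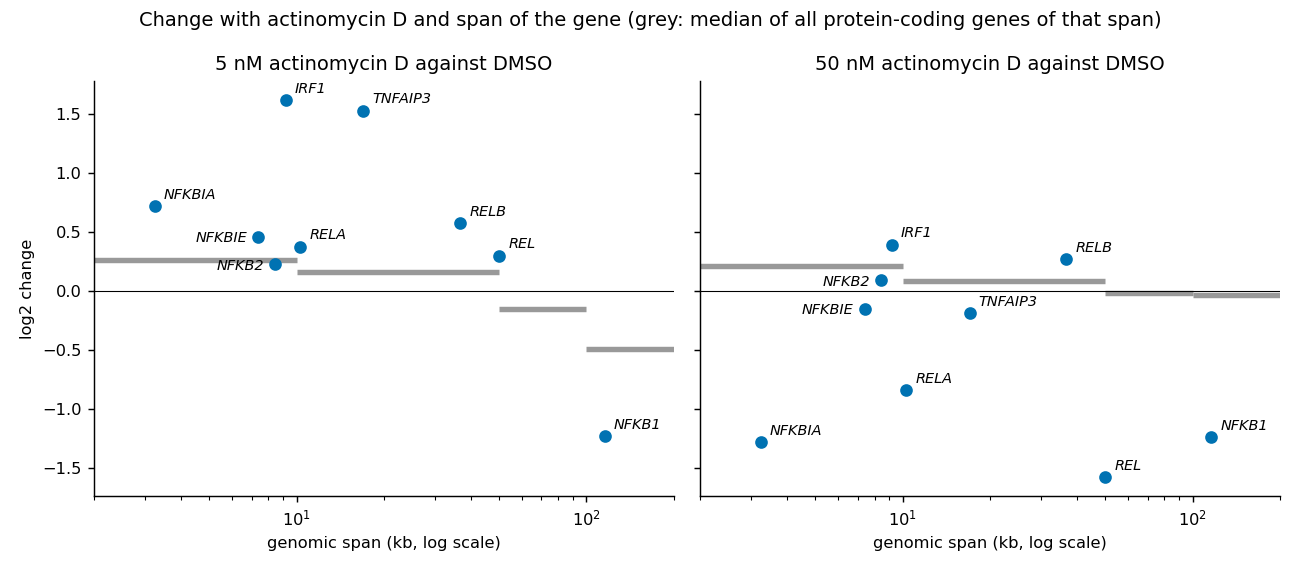
Log2 change at 5 nM (left) and 50 nM (right) on the deposited scale against genomic span in kb on a log axis, with grey bars for the median of all protein-coding genes in 4 classes of span. NFKB1 (116 kb) is low at both doses, whereas NFKBIA (3.24 kb) is at 0.72 at 5 nM and at -1.28 at 50 nM.

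The other genes of the pathway were listed by role, and 106 of 117 were measured. The lists were chosen with earlier results of these data known, so their counts only describe these genes. After FLI1 shRNA 51 of the 106 rose and 2 fell (of all genes, 14.6% and 9.28%), and their median change was 0.27, beside -0.01 for all genes. Among 20 receptors and adaptors 9 rose and 1 fell. They included TLR3, the endosomal receptor for double-stranded RNA (1.37), the kinase IRAK2 (0.93), TAB3 (0.45) and the lymphotoxin receptor LTBR (0.44). Of 10 IKK kinase and linear ubiquitin genes 6 rose and 4 did not pass, among them TANK (0.95), RBCK1 of the linear ubiquitin ligase (0.47), the kinase TBK1 (0.42) and IKBKG, the regulatory IKK subunit (0.42). Of 19 other inhibitors 10 rose and 9 did not pass, with TNIP3 (0.82), NFKBIZ (0.73), TAX1BP1 (0.56) and BIRC2 (0.51) the furthest. The nuclear protein encoded by NFKBIZ can also act as a co-activator of NF-κB targets. Of 30 other target genes 14 rose and 1 fell. PLAU, the urokinase gene, rose by 2.17, CCL2 by 1.45, IL1A by 1.44 and IL1B by 1.10, the largest changes of these 30. The median of the 30 was 0.31, beside 0.17 for the 9 genes.

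Among the listed genes, the rises on the lacZ shRNA arrays against untreated cells were mostly in the targets. Of the 106 genes 10 rose and 3 fell, and 8 of the 10 were among the 30 targets, of which 1 fell (of all genes, 0.815% rose and 2.26% fell). CCL20 rose by 1.54 (adjusted p = 0.00445), CXCL8 by 1.44 (adjusted p = 4.57e-05), ICAM1 by 1.06 (adjusted p = 9.97e-04) and PTGS2, the inducible cyclooxygenase, by 0.76. The other rises were those of the inhibitors NFKBIZ (0.39) and BIRC2 (0.38). These list counts were not recomputed with an array left out.

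On the deposited scale 54 of the 106 rose and 19 fell at 5 nM (of all genes, 30.3% and 23%), and 33 rose and 28 fell at 50 nM (25.8% and 23.3%, near the share in the list). The targets GADD45B, a stress-response gene (2.87 at 5 nM and 2.04 at 50 nM), PTGS2 (2.65 and 1.96) and IER3 (1.68 and 1.00) rose at both doses, while IL1A rose by 2.05 at 5 nM and by 0.35 at 50 nM. Of the 30 targets 21 rose and 3 fell at 5 nM, and 12 rose and 6 fell at 50 nM. After ribosomal centring 11 rose and 6 fell at 5 nM. Upstream of the subunits 3 of the 10 IKK kinase and linear ubiquitin genes rose and 3 fell at 5 nM on the deposited scale. At 50 nM 1 rose and 5 fell. After centring 0 rose and 7 fell at 5 nM, and 0 rose and 8 fell at 50 nM. Centring lowered the whole array: the median of all genes went from 0.119 to -0.235 at 5 nM and from 0.098 to -0.158 at 50 nM. Of all genes called on that scale 17.2% at 5 nM and 12.2% at 50 nM were higher. The share of all genes that fell on it is not given, so the centred counts are not read as a result about the pathway. The kinase gene IKBKB fell by 1.24 at 5 nM and 0.57 at 50 nM, and TBK1 fell by 0.53 at 5 nM and by 2.17 at 50 nM. Of the 20 receptors and adaptors 7 rose and 6 fell at 5 nM, and 3 rose and 8 fell at 50 nM. TRAF3 and IL1RAP fell by 1.72 and 1.48 at 5 nM, whereas TLR3 and MYD88 rose by 1.01 and 1.00. From 5 nM to 50 nM TRAF3 and IL1RAP rose by 1.58 and 1.46. The receptor gene TNFRSF1A fell by 1.44 at 50 nM. TRAF6, an adaptor of the interleukin 1 and Toll-like receptors, rose by 0.69 at 5 nM and fell by 1.33 at 50 nM. Among the other inhibitors 10 rose and 3 fell at 5 nM (4 and 6 after centring), and 7 rose and 4 fell at 50 nM (2 and 10 after centring). At 5 nM ITCH, a partner of A20, fell by 1.35, while NFKBIZ rose by 0.95, NKIRAS1 by 0.87 and BIRC2 by 0.72. At 50 nM OTUD7B fell by 1.26, OTULIN by 0.95 and NKIRAS1 by 0.54, while NFKBIL1 rose by 0.55. From 5 nM to 50 nM 15 of the 106 rose and 47 fell, where 21.6% of all genes rose and 23.1% fell.

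**Figure D4:**
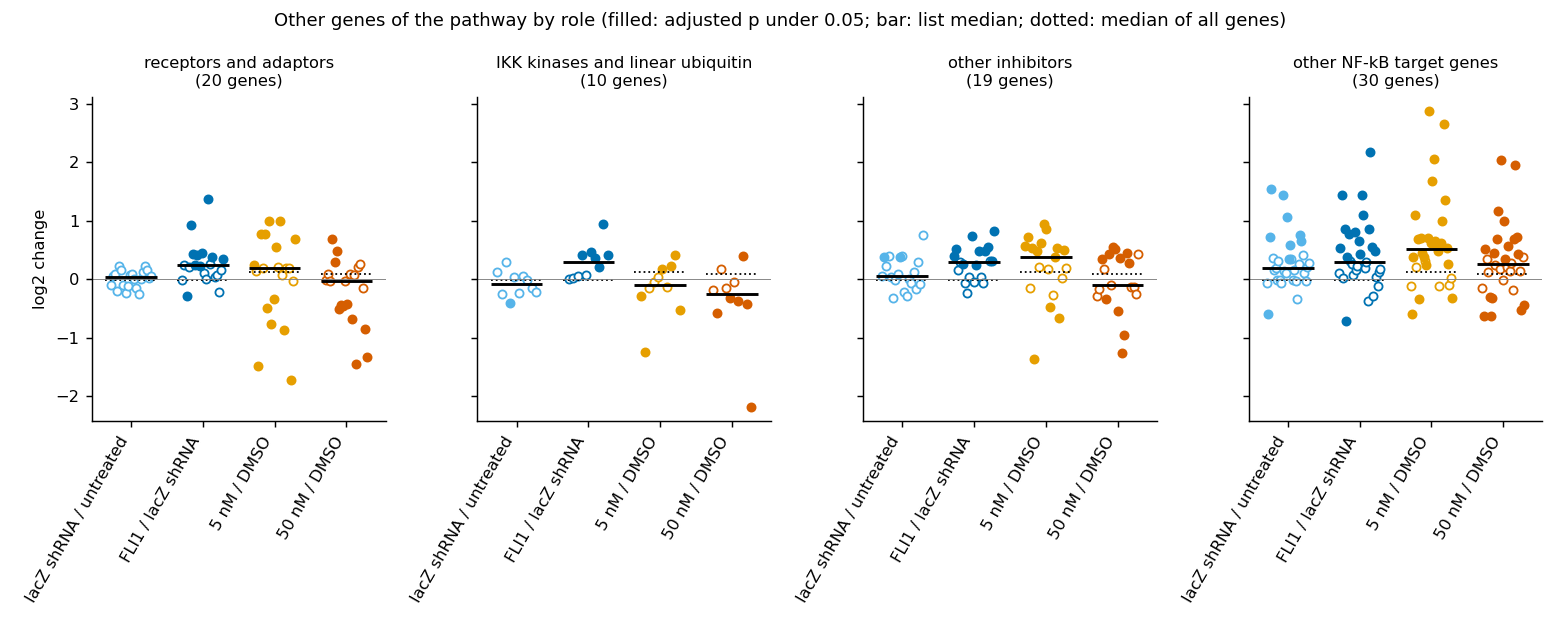
Log2 change (vertical axis) of each gene of 4 pathway lists in 4 comparisons, filled where the adjusted p lies under 0.05, with the list median as a bar and the median of all genes dotted. After FLI1 shRNA the medians of all 4 lists lie between 0.24 and 0.31, and at 5 nM the targets GADD45B and PTGS2 stand highest; on the ribosomal scale 11 of the 30 targets rose at 5 nM in place of 21.

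Around IRF1, 13 interferon regulatory factors and upstream genes and 14 of its targets were measured. After FLI1 shRNA 7 of the 13 rose and 6 did not pass, led by IRF2, which competes with IRF1 for its sites (1.20), SOCS1 (0.84), IRF9 (0.77) and SOCS3 (0.55). IRF2 moved the other way with the drug, falling by 2.35 at 5 nM and by 1.70 at 50 nM, whereas SOCS1, an inhibitor of JAK kinases, rose at both doses (1.85 and 0.65). IFNGR1, a chain of the interferon γ receptor, rose by 0.97 at 5 nM and fell by 0.96 at 50 nM. Of the 14 targets 5 rose after FLI1 shRNA (14.6% of all genes), 6 rose and 1 fell at 5 nM (30.3% and 23%), and 7 rose and 1 fell at 50 nM (25.8% and 23.3%), where 2 rose and 3 fell after centring. With dim genes left out 7 of these targets remained, of which 3 rose in each of the 3 comparisons. The antigen-processing genes TAP1 (0.55 after the knock-down and 0.72 at 5 nM) and TAP2 (-0.15, which did not pass, and 0.90) were among those measured. IFIT2 rose in both comparisons (0.56 and 1.22) and fell at 50 nM (-0.52). CXCL10, a chemokine that NF-κB and IRF1 both control, did not pass in any comparison.

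Across the 12 arrays the genes fell into unlike patterns, given here as a description, since the points share groups and normalization. Pearson's r was 0.97 between RELA and REL, 0.95 between REL and NFKBIA and 0.91 between RELA and NFKBIA, the genes that were low only at 50 nM. It was 0.83 between NFKBIE and IRF1 and 0.81 between RELB and TNFAIP3. NFKB1 was at 0.66 with NFKB2, at -0.21 with NFKBIE and at -0.49 with IRF1. Among 4289 genes whose group means spanned at least 1 log2 unit, the profiles most like NFKB1 were those of ZC3H12C (0.984), RAPGEF2 and RNF217, and those most like REL were ZNF430 (0.995), ITPRIP and ZNF721. RELA was most like CSRNP2 (0.993), TBC1D20 and MID1IP1, and NFKBIA like NDEL1 (0.964), TNFRSF10A and DUSP6. For TNFAIP3 they were KLF10 (0.968), MXD1 and TNFRSF12A, and for IRF1 DNAJC27 (0.973), GPER1 and SOCS1 (0.968), the inhibitor of JAK kinases named above.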

How the data were processed

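RNA from A673 cells, 12 arrays in 6 groups of 2, was measured on Affymetrix Gene 1.0 ST chips. The deposited log2 values are the output of RMA, which the authors ran in affy (no version of it is stated in what was read here). RMA sets all arrays to a like distribution, so the values are relative levels. Groups come from the labels, and every value column matched a sample.

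Of 32321 rows, 19158 carried 1 gene symbol, 1388 several and 11775 none. The first kind was tested, with the brightest probe set for each of the 637 genes that had several, which left 18404 genes. A mean per group was fitted to all 12 arrays with limma 3.58.1 in R 4.3.3 (6 residual and 4.45 prior degrees of freedom), and p-values were adjusted by Benjamini-Hochberg over all genes of a comparison. Errors are standard errors. The fit was tested on simulated data.

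The genes, the pathway lists and the comparisons were chosen with earlier results of these data known. Named genes are the 10 listed, up to 4 per list with the largest change among those with an adjusted p under 0.05, and the 3 most correlated genes for each gene that passed a 2-fold change at an adjusted p under 0.01. CXCL10, and values of a named gene in a comparison where it was not among the 4, were added after the values were seen. Alternatives were the replicate number as a block, the 4 arrays of a comparison alone, repeated quantile normalization, centring on 57 ribosomal protein genes, dim genes left out, the mean over probe sets, all rows, trended and robust variances, and each array left out in turn. Promoters and spans are from RefSeq (GRCh38.p14).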

Additional observations from a re-analysis of the deposited data

How the results depend on the processing

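Over the 9 genes and 7 contrasts, 783 values were recomputed under alternative settings. Of these, 711 kept their direction and their side of the threshold, 41 lost the call, 14 gained it and 17 changed sign. The first count is no measure of stability, since many values could not change direction. The replicate block, the omission of dim genes, all rows, trended variances and the 4-array fit leave a gene's log2 change as it was. A value that did not pass had no call to lose. The number of genes that rose after FLI1 shRNA went from 2 to 0 with all rows tested and was 0 with any of the 4 arrays left out. After ribosomal centring 3 genes rose at 5 nM and 0 at 50 nM, in place of 7 and 1 on the deposited scale. These centred counts are not compared with the array, since the share of all genes that rose on that scale is not given. With lacZ shRNA against untreated cells 1 gene rose in the fit of the 4 arrays alone and 0 to 2 with an array left out. The deviations of same-numbered arrays correlated at -0.453 to 0.335 between groups, with both signs, so the numbers gave no single pairing. Whether arrays of different groups share an effect that the numbers do not follow was not tested. With the replicate block 3 genes rose with lacZ shRNA in place of 4 (NFKB1 adjusted p = 0.0531), and no other call on the 9 genes changed.

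The sign changes were all of values that passed no threshold, but for REL at 5 nM (-0.0545 after centring) and in the difference of both responses (0.014). After centring NFKB2 was at -0.13 at 5 nM and -0.17 at 50 nM, and the difference of responses was 0.16 for RELA and 0.0344 for NFKBIE. NFKB1 between doses was at 0.0579 with repeated quantile normalization, 0.0888 after centring and -0.151 to 0.133 with an array left out (0.0273 without 5 nM replicate 1, 0.133 without 50 nM replicate 1). With DMSO NFKB1 was at -0.00977 after quantile normalization, -0.0365 after centring and -0.117 to 0.119 with an array left out, NFKB2 was at -0.122 to 0.0334 with an array left out, and IRF1 was at 0.00129 after quantile normalization. NFKBIE with lacZ shRNA was at -0.013 to 0.123 with an array left out. The 2 arrays per group limit the precision, and the cause of these shifts was not tested.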
